A study of Mus musculus with 8 samples.

Results

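The genes described are 8 members of the MYC network (Myc, Mycn, Max, Mxd3, Mxd4, Mxi1, Mnt and Mlx) and the polyamine synthesis genes Odc1 and Srm. They were chosen by name, with earlier results of these data known. They make up 10 of the 32499 genes in the deposited count table, and all 10 passed the filter on low counts, with values in every library. The libraries came from total RNA of 8 mouse pre-B cell cultures, a precursor stage of B lymphocytes, which derived from C57BL/6 Arf-/- bone marrow and were sorted as GFP+. The 4 groups of 2 cultures carried an empty vector, the HA-tagged full-length ZNF384 (ZNF384-HA), the fusion TAF15-ZNF384-HA, or the fusion TCF3-ZNF384-HA, the constructs being delivered by lentivirus. ZNF384 encodes a zinc finger transcription factor, and both fusions join it to a partner gene as found in acute leukaemia. Every group, the empty vector included, lacks the tumour suppressor Arf, which is known to act against excess MYC, so no group shows these genes in Arf-proficient cells. The series calls the replicates biological. Whether they came from separate mice or separate infections, and the age of the mice, are not given in the sources used here, so p-values measure the spread between these cultures, which may be technical.

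MYC proteins are transcription factors of the basic helix-loop-helix zipper class. They bind DNA only as a pair with MAX, preferring the E-box CACGTG, and favour genes of growth, ribosome production and nucleotide synthesis. MXD1, MXD3, MXD4, MXI1 and MNT compete for MAX, bind the same element and recruit the SIN3 corepressor and its histone deacetylases, while MLX is a second hub that can pair with some of them and with the glucose-responsive MondoA and ChREBP. Odc1 and Srm are classical MYC-responsive genes: ornithine decarboxylase makes putrescine, the rate-limiting step of polyamine synthesis, and spermidine synthase turns putrescine into spermidine. In B cell development MYC and MYCN serve the proliferating precursor stages.

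Library totals ran from 9381954 to 41483660 counts, and 12970 genes were tested. A group of 5 abundant non-coding RNA genes took 10.9 and 12.5% of counts with full-length ZNF384 and 18.5 to 33.2% in the other 6 libraries, and a scaling without these genes is among the alternatives in the closing section. The 10 pre-B markers (Vpreb1, Igll1, Cd79a and others) were each at 1 CPM or more in every library, with summed levels from 5759 to 6447 CPM (the share of a library's counts scaled to a common total, with library sizes adjusted by the trimmed mean of M values, TMM). Of these 10, 1 rose and 0 fell over the empty vector with full-length ZNF384 and likewise with TAF15-ZNF384, and 3 rose and 3 fell with TCF3-ZNF384. The shares called were 10%, 10% and 60% in that order, beside 20.6%, 11.0% and 33.3% of all tested genes. Summed over their lists, myeloid markers were at 0.09 to 0.98 CPM in 6 libraries and highest with TCF3-ZNF384, at 1.38 and 1.88 CPM. Of these 10 markers Itgam alone passed the filter and rose with TCF3-ZNF384, on 11 and 17 counts beside 0 to 2 in each other library, while S100a8 and S100a9 had 0 counts in all 8 and Elane and Lyz2 0 to 3. Their part in the results was not tested. Stromal markers summed to 0.41 to 2.21 CPM and erythroid and megakaryocyte markers to 3.45 to 6.74 CPM. T and NK cell markers summed to 85.6 to 118 CPM, nearly all from Zap70 and Lck, with Cd3e from 0 to 0.09 CPM. Zfp384, the mouse counterpart to which part of the construct reads can map, rose over the empty vector by log2 fold changes of 1.62 with full-length ZNF384, 2.93 in the TAF15-ZNF384 group and 4.40 in the TCF3-ZNF384 group. Immediate early genes (20 listed), a class that includes Fos and Egr1 and responds to growth signals and to handling of cells, summed to 630 and 809 CPM in full-length ZNF384 cells and to 2075 to 3081 CPM in the other 6 libraries. In these bulk samples fewer cells of a type and less RNA per cell cannot be told apart.

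Differences were tested with edgeR's quasi-likelihood F test on all 8 libraries, with Benjamini-Hochberg adjustment over the 12970 tested genes and a threshold of 0.05, and only genes past it are said to rise or fall. With full-length ZNF384, 3 of the 10 genes rose over the empty vector and none fell, where 20.6% of all tested genes were called, 10.8% higher and 9.87% lower. In the TAF15-ZNF384 group 1 rose and 3 fell, against 11.0% of all tested genes called, 5.01% higher and 6.01% lower. In the TCF3-ZNF384 group 1 rose and 4 fell, against 33.3% called, 16.2% higher and 17.0% lower. Set against full-length ZNF384, 1 gene rose and 3 fell in TAF15-ZNF384 cells (33.3% of all genes called, 15.4% higher and 17.9% lower). In TCF3-ZNF384 cells none rose and 5 fell by that comparison (45.6% called, 22.2% higher and 23.4% lower). Between the fusions 3 were lower in TCF3-ZNF384 cells and none higher, against 10.1% of all genes, 5.91% higher and 4.17% lower. For the 3 counts of 0, no gene of the 10 was lower with full-length ZNF384 than with the empty vector at an unadjusted p under 0.05, 1 (Max) was higher with TCF3-ZNF384 than with full-length ZNF384, and 0 were higher between the fusions. By limma-voom and by the DESeq2 Wald test all 3 counts were 0, while under total-count scaling Max and Mxd3 rose with TCF3-ZNF384 over full-length ZNF384. The 2 libraries of a group lay apart from those of the other, with no overlap, for 5, 9 and 8 of the 10 genes in the comparisons of full-length ZNF384, TAF15-ZNF384 and lastly TCF3-ZNF384 with the empty vector. The same held for 58.4%, 59.3% and 71.0% of all tested genes. It held for 8 of 10 in each of the other 3 comparisons, beside 66.3% for TAF15-ZNF384 against full-length ZNF384, 72.8% for TCF3-ZNF384 against full-length ZNF384 and 57.2% between the fusions. The median log2 fold change of the 10 genes over the empty vector was 0.08 with full-length ZNF384 beside 0.03 over all tested genes, −0.02 beside 0.01 in the TAF15-ZNF384 group and −0.08 beside 0.01 in the TCF3-ZNF384 group. The 3 comparisons with the empty vector share its libraries, so they are set side by side and not counted as separate evidence.

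**Figure D1:**
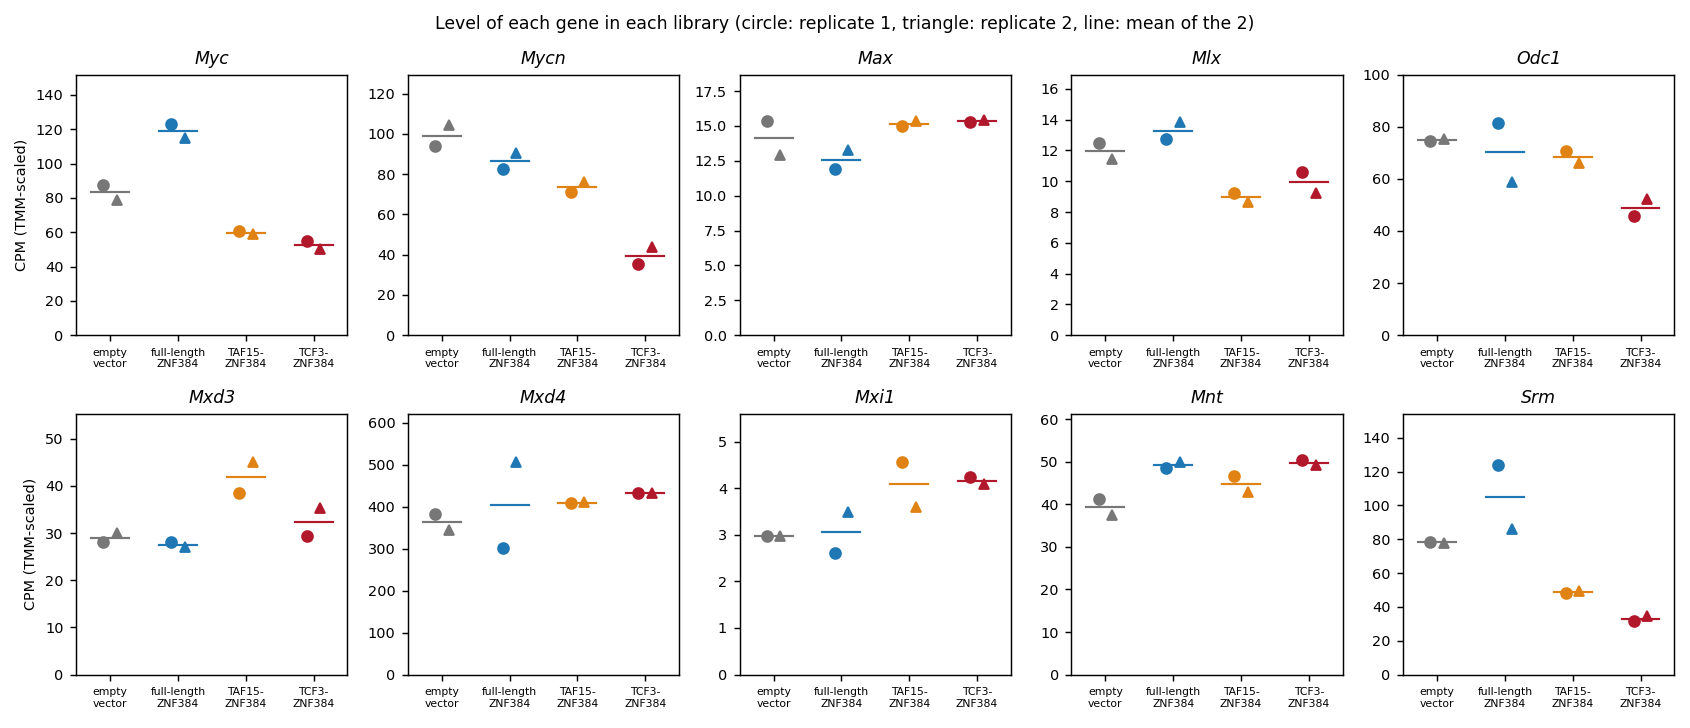
Level in CPM of each of the 10 genes (y axis, from 0) in each library of the 4 groups (x axis); circles are replicate 1, triangles replicate 2 and lines the mean of the 2. Myc and Srm stepped down from full-length ZNF384 to the empty vector to the fusions, while Mxd4 differed most between the full-length ZNF384 replicates, at 302 and 507 CPM.

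Myc (mm9 chromosome 15, from 61816946 to 61821929, plus strand, protein coding) encodes c-MYC, the network's principal activator. It was at 87.7 and 78.7 CPM in empty vector cells, 123 and 115 in full-length ZNF384 cells, 60.5 and 59.0 in TAF15-ZNF384 cells and 54.9 and 49.97 in TCF3-ZNF384 cells. No group overlapped another: full-length ZNF384 was highest, the empty vector next, and every fusion library lay below every other library. The means were 83.2 ± 6.42, 119 ± 5.61, 59.7 ± 1.01 and 52.4 ± 3.46 CPM in that order (SD, n = 2). Myc rose 1.43-fold with full-length ZNF384, a log2 fold change of 0.52 ± 0.10 (SE, adjusted p = 0.00235). It fell with TAF15-ZNF384 by 0.48 ± 0.10 on the log2 scale (adjusted p = 0.00906) and with TCF3-ZNF384 by 0.67 ± 0.10 (adjusted p = 0.000205). The fall with TCF3-ZNF384 passed the threshold under all 17 alternatives tried, with log2 values from −0.75 to −0.53. The rise with full-length ZNF384 did not pass without empty vector replicate 2 (0.44). The fall with TAF15-ZNF384 did not pass without empty vector replicate 1 (−0.40), TAF15-ZNF384 replicate 1 (−0.51) or TAF15-ZNF384 replicate 2 (−0.47).

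Set against full-length ZNF384, Myc was lower by 0.99 ± 0.10 on the log2 scale with TAF15-ZNF384 (adjusted p = 1.25e-05) and by 1.19 ± 0.10 with TCF3-ZNF384 (adjusted p = 8.12e-07), and both calls held under every alternative run. Between the fusions the log2 difference was −0.19 ± 0.11 (adjusted p = 0.298), with a 95% interval from −0.42 to 0.04, so a difference of that size was not separated from the spread between replicates.

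Mycn (chromosome 12, from 12942902 to 12948720, minus strand) encodes N-MYC, a close relative that can stand in for c-MYC in lymphoid cells. Its levels were 93.7 and 104 CPM in empty vector cells, 82.8 and 90.3 in full-length ZNF384 cells, 71.0 and 76.3 in TAF15-ZNF384 cells and 35.2 and 43.9 in TCF3-ZNF384 cells. The 4 groups again did not overlap, but the order differed from that of Myc, with the empty vector highest. The means were 99.1 ± 7.54, 86.5 ± 5.31, 73.6 ± 3.73 and 39.5 ± 6.21 CPM (SD, n = 2). Mycn was 2.49-fold lower with TCF3-ZNF384 than with the empty vector, a log2 difference of −1.32 ± 0.12 (adjusted p = 1.63e-06). This call held under all 17 alternatives with values from −1.50 to −1.17. With TAF15-ZNF384 it fell by 0.43 ± 0.12 (adjusted p = 0.0313). That smaller fall did not pass under total-count scaling (−0.32), under thinning to the shallowest library (−0.38), or in 4 of the fits without 1 library, which are those without empty vector replicate 1 (−0.51), empty vector replicate 2 (−0.35), TAF15-ZNF384 replicate 1 (−0.39) and TAF15-ZNF384 replicate 2 (−0.49). With full-length ZNF384 the log2 difference of −0.20 ± 0.11 was not past the threshold (adjusted p = 0.238).

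Of the 8 network genes, Mycn alone passed the threshold between the fusions, while Mxd3 passed in 3 of the 17 alternatives. For Mycn, TCF3-ZNF384 was lower than TAF15-ZNF384 by 0.89 ± 0.12 on the log2 scale (adjusted p = 0.000375, 95% interval from −1.15 to −0.63), a call kept under all 17 alternatives. Against full-length ZNF384 it fell by 1.12 ± 0.12 with TCF3-ZNF384 (adjusted p = 5.68e-06), and with TAF15-ZNF384 the difference was −0.23 ± 0.12 (adjusted p = 0.141).

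Max (chromosome 12, from 78038256 to 78063235, minus strand), the obligate partner of MYC, lay between 11.9 and 15.4 CPM in all 8 libraries and passed the threshold in none of the 6 comparisons. Its log2 fold changes over the empty vector were −0.18 with full-length ZNF384, 0.10 in the TAF15-ZNF384 group and 0.12 in the TCF3-ZNF384 group. The largest difference was 0.29 ± 0.13 between TCF3-ZNF384 and full-length ZNF384 (adjusted p = 0.0882), and it passed under total-count scaling (0.46) and without full-length ZNF384 replicate 2 (0.38).

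Mlx (chromosome 11, from 100948591 to 100953521, plus strand), the second hub, was at 12.5 and 11.5 CPM in empty vector cells, 12.7 and 13.8 in full-length ZNF384 cells, 9.24 and 8.67 in TAF15-ZNF384 cells and 10.6 and 9.26 in TCF3-ZNF384 cells. All 4 fusion libraries were below all 4 others. Over full-length ZNF384 it fell by 0.56 ± 0.15 on the log2 scale with TAF15-ZNF384 (adjusted p = 0.0109) and by 0.43 ± 0.14 with TCF3-ZNF384 (adjusted p = 0.0227). Over the empty vector the differences of −0.42 ± 0.15 and −0.28 ± 0.14 were not past the threshold (adjusted p = 0.0956 and 0.146). Under total-count scaling neither fall from full-length ZNF384 passed (−0.43 and −0.26). The first also failed without TAF15-ZNF384 replicate 1 (−0.62) or replicate 2 (−0.53), and the second by the DESeq2 Wald test, with only the 2 groups fitted, and without full-length ZNF384 replicate 2 (−0.35) or TCF3-ZNF384 replicate 2 (−0.31). Mlx overlaps Psmc3ip on the opposite strand, and the strand setting of the counting is not given in the sources used here, so reads of the pair may be mixed. Psmc3ip rose by 0.65 in TAF15-ZNF384 cells over full-length ZNF384 (adjusted p = 0.00444) and differed by −0.02 between TCF3-ZNF384 and full-length ZNF384 (adjusted p = 0.942).

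Mnt (chromosome 11, from 74644422 to 74659227, plus strand) encodes the broadly expressed antagonist that offsets MYC in most cells. It was at 41.4 and 37.6 CPM in empty vector cells, 48.4 and 49.98 in full-length ZNF384 cells, 46.6 and 42.9 in TAF15-ZNF384 cells and 50.4 and 49.2 in TCF3-ZNF384 cells. Each library with a construct was above both empty vector libraries. Mnt rose by 0.32 ± 0.10 on the log2 scale with full-length ZNF384 (adjusted p = 0.0341) and by 0.33 ± 0.10 with TCF3-ZNF384 (adjusted p = 0.0199). With TAF15-ZNF384 the difference was 0.18 ± 0.10 (adjusted p = 0.282). The first rise did not pass in 10 of 17 alternatives, among them the fits without either empty vector, TAF15-ZNF384 or TCF3-ZNF384 library (0.25 to 0.39), and over the 17 its adjusted p ran from 0.0273 to 0.277. The second did not pass without empty vector replicate 1 (0.40) or 2 (0.26), or without TCF3-ZNF384 replicate 1 (0.32) or 2 (0.35).

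The promoter windows of Mnt and Mlx, members called in at least 1 comparison, hold a CACGTG, the element that MYC and its antagonists share. The windows (250 bases before to 50 after the annotated start, RefSeq, GRCm38.p6) could be matched for 8 of the 10 genes, not for Myc or Srm. The motif, which reads the same on both strands, was found in 4 of these 8, and 8.09% of the 27025 genes in the table hold it. In Mxd4 its first base lies 219 bases before the start, in Mnt 123 and in Mlx 40, and in Max it begins 3 bases before and spans the start. The stretches around it are given 5′ to 3′ on the plus strand with the motif in capitals, at chr11:74830789-74830818 for Mnt and chr11:101087238-101087267 for Mlx.
Mnt: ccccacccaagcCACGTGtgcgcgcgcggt
Mlx: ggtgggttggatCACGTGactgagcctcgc
Of the 4 genes that hold the motif, Mnt was called over the empty vector, Mlx was called against full-length ZNF384, and Max and Mxd4 were called in none of the 6 comparisons. Mnt and Mlx were called together in no comparison. A second search looked on both strands for CAAAAA or GAAAAA, the A-rich element reported for ZNF384. It matched the windows of Mlx, Mycn and Mxi1, and 35.4% of genes hold it. A match is a description of the letters and shows no binding.

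Mxd3 (chromosome 13, from 55426529 to 55431119, minus strand), an antagonist known from cells in S phase, was at 28.04 and 30.04 CPM in empty vector cells, 28.1 and 27.0 in full-length ZNF384 cells, 38.5 and 45.2 in TAF15-ZNF384 cells and 29.5 and 35.3 in TCF3-ZNF384 cells. Only the TAF15-ZNF384 libraries lay above all others. Mxd3 rose 1.44-fold over the empty vector with TAF15-ZNF384, a log2 difference of 0.53 ± 0.12 (adjusted p = 0.0128), and by 0.60 ± 0.12 over full-length ZNF384 (adjusted p = 0.00186). The second call held under all 17 alternatives. The first did not pass without empty vector replicate 1 (0.47), empty vector replicate 2 (0.57) or TAF15-ZNF384 replicate 2 (0.40). TCF3-ZNF384 differed from full-length ZNF384 by 0.24 ± 0.12 (adjusted p = 0.114), a difference that passed under total-count scaling (0.41). It differed from the empty vector by 0.16 ± 0.12 (adjusted p = 0.312) and from TAF15-ZNF384 by −0.36 ± 0.12 (adjusted p = 0.0793), which passed when only those 2 groups were fitted and without either full-length ZNF384 library, at −0.36 in each. Mxd3 overlaps Prelid1 on the opposite strand, so reads of this pair may be mixed as well. Prelid1 was at 14.0 and 12.8 CPM in empty vector cells and 14.9 and 17.4 in TAF15-ZNF384 cells (log2 fold change 0.27, adjusted p = 0.228). It rose with full-length ZNF384 over the empty vector (0.70, adjusted p = 0.00124). From full-length ZNF384 it fell with TAF15-ZNF384 (−0.43, adjusted p = 0.0216) and with TCF3-ZNF384 (−0.62, adjusted p = 0.00143).

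Mxd4 (chromosome 5, from 34516536 to 34530369, minus strand), an antagonist tied to differentiation, was at 383 and 344 CPM in empty vector cells, 302 and 507 in full-length ZNF384 cells, 409 and 411 in TAF15-ZNF384 cells and 433 and 432 in TCF3-ZNF384 cells. The full-length ZNF384 replicates spanned all other libraries. Mxd4 passed the threshold in none of the 6 comparisons, with differences over the empty vector of 0.15 ± 0.20, 0.17 ± 0.20 and 0.25 ± 0.20. Without full-length ZNF384 replicate 1 it was higher with full-length ZNF384 by 0.47 (adjusted p = 0.000398), and without replicate 2 it was lower, at −0.29 (adjusted p = 0.0132), so these 2 libraries decide its direction. The same holds of its differences from full-length ZNF384: without replicate 1 and without replicate 2 they were −0.29 and 0.46 in the TAF15-ZNF384 group and −0.21 and 0.54 in the TCF3-ZNF384 group. The 0.25 with TCF3-ZNF384 passed when only that group and the empty vector were fitted and without either full-length ZNF384 library.

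Mxi1 (chromosome 19, from 53384996 to 53450300, plus strand) was the least abundant, at 2.61 to 4.57 CPM. Its differences over the empty vector were 0.02 ± 0.23, 0.45 ± 0.26 and 0.48 ± 0.24, none past the threshold. The 4 fusion libraries, at 3.60 to 4.57 CPM, lay above the 4 others, at 2.61 to 3.50 CPM.

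The other network genes were 5, of which 4 passed the filter. Mxd1, the antagonist first known as MAD, was at 116 and 143 CPM in empty vector cells, 23.2 and 31.6 in full-length ZNF384 cells, 111 and 92.6 in TAF15-ZNF384 cells and 96.0 and 107 in TCF3-ZNF384 cells. It fell with full-length ZNF384 by 2.25 ± 0.16 on the log2 scale (adjusted p = 2.66e-06), while its differences with the fusions were −0.35 in each (adjusted p = 0.160 and 0.0902). Mycl, the third MYC paralog, was at 0.18 and 0.13 CPM in full-length ZNF384 cells and 0.86 to 2.39 CPM elsewhere, a fall of 2.97 ± 0.56 from the empty vector (adjusted p = 0.00220) that rests on 8 and 3 counts. Mga, which pairs with MAX in a repressive complex, fell by 0.36 ± 0.09 (adjusted p = 0.0113), but did not pass without empty vector replicate 1 (−0.38) or 2 (−0.33), and Mlxip, which encodes MondoA, differed by −0.05 (adjusted p = 0.850). The share of these 4 called over the empty vector was 75% with full-length ZNF384 beside 20.6% of all tested genes. None of these 4 passed edgeR's test with either fusion over the empty vector. Of all tested genes 11.0% were called with TAF15-ZNF384 and 33.3% with TCF3-ZNF384. At an unadjusted p under 0.05, 1 was lower with TAF15-ZNF384 and 2 were lower with TCF3-ZNF384, and by limma-voom and DESeq2 the counts were 0. With TCF3-ZNF384, 2 fell when only that group and the empty vector were fitted or without either full-length ZNF384 library, and 1 fell without empty vector replicate 1. With no filter on low counts 1 fell with each fusion. Full-length ZNF384 is also the group in which 18 of 19 tested immediate early genes fell from the empty vector, beside 9.87% of all tested genes. Over full-length ZNF384, 18 of the 19 rose with each fusion, beside 15.4% of all tested genes with TAF15-ZNF384 and 22.2% with TCF3-ZNF384. The part of these changes in the Mxd1 and Mycl values was not tested.

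**Figure D2:**
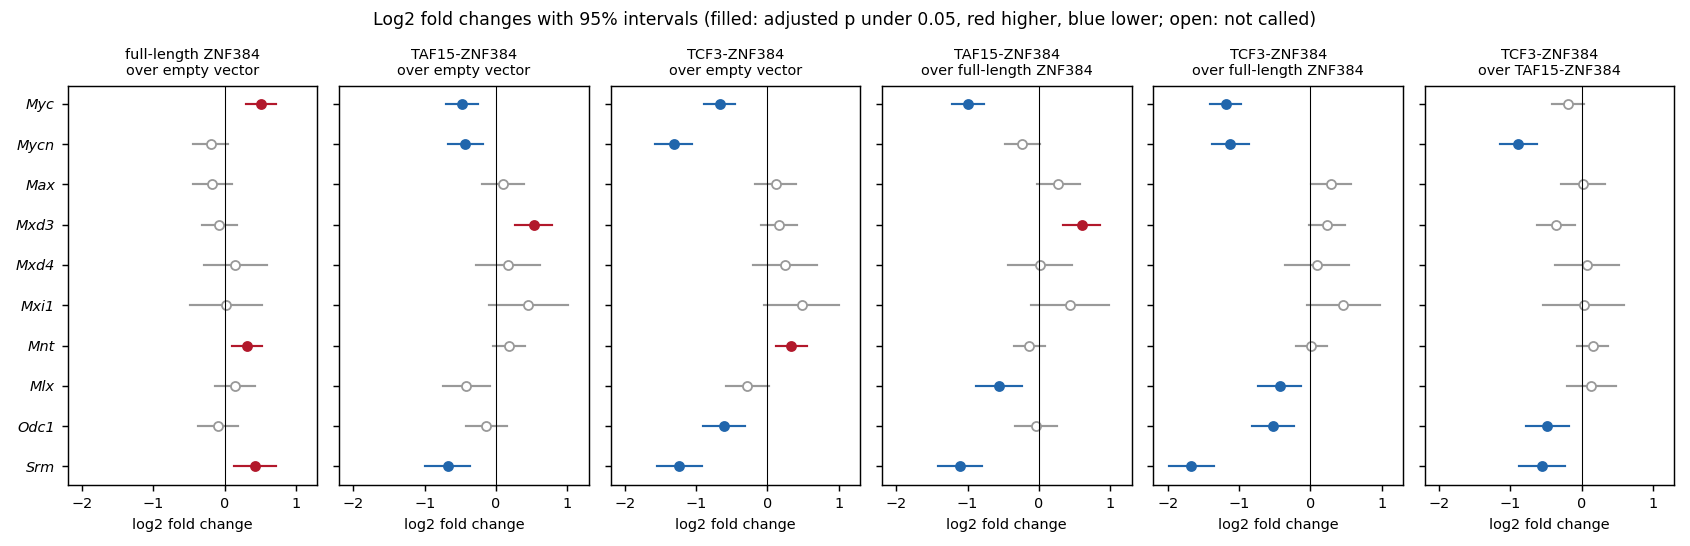
Log2 fold change (x axis) of each gene (y axis) in the 6 comparisons, with 95% intervals; filled points passed the adjusted p threshold of 0.05, red for higher and blue for lower. Myc rose with full-length ZNF384 (0.52) and fell with the fusions (−0.48 and −0.67), and so did Srm (0.43, −0.68 and −1.24).

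Odc1 (chromosome 12, from 17551679 to 17558308, plus strand) was at 74.6 and 75.4 CPM in empty vector cells, 81.5 and 58.8 in full-length ZNF384 cells, 70.7 and 66.1 in TAF15-ZNF384 cells and 45.6 and 52.2 in TCF3-ZNF384 cells. Both TCF3-ZNF384 libraries were below the other 6. The means were 75.0 ± 0.507, 70.2 ± 16.1, 68.4 ± 3.22 and 48.9 ± 4.68 CPM (SD, n = 2). Odc1 fell with TCF3-ZNF384 by 0.61 ± 0.14 on the log2 scale from the empty vector (adjusted p = 0.00353), by 0.52 ± 0.14 from full-length ZNF384 (adjusted p = 0.00648) and by 0.48 ± 0.14 from TAF15-ZNF384 (adjusted p = 0.0444). The first did not pass without TCF3-ZNF384 replicate 1 (−0.52), the second without that library (−0.41) or full-length ZNF384 replicate 1 (−0.24), and the third did not pass in 7 of 17 alternatives (limma-voom and the fits without either empty vector, TAF15-ZNF384 or TCF3-ZNF384 library, at −0.59 to −0.39). With TAF15-ZNF384 the difference from the empty vector was −0.13 ± 0.14 (adjusted p = 0.575, 95% interval from −0.43 to 0.16). With full-length ZNF384 it was −0.09 ± 0.13 (adjusted p = 0.667), but −0.37 without full-length ZNF384 replicate 1 (adjusted p = 0.0148).

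The first intron of Odc1 holds a known pair of E-boxes through which MYC acts on the gene. The mm9 sequence at chr12:17551984-17552069 on the plus strand, shown because of this pair and chosen after the values of Odc1 were seen, has CACGTG 325 and 365 bases after the annotated start, in capitals.
Odc1: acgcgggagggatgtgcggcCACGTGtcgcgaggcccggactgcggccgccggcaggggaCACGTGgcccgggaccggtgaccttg
Each of the CACGTG matches lies in an exon of 0 of 2 annotated transcripts. Among 22215 protein-coding genes, 14.1% hold at least 1 CACGTG in the first 1000 bases after the start. In that window Mnt also holds 1, 476 bases after its start and exonic in 1 of 3 transcripts. Mycn, Max, Mxd3, Mxd4, Mxi1 and Mlx hold none. Myc and Srm, which had no matched promoter window, were left out of this search as well, so Srm cannot be set beside Odc1 on this motif. The log2 fold change of Srm was larger in size than that of Odc1 in each comparison with the empty vector, a difference between genes that was not tested.

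Srm (chromosome 4, from 147965612 to 147969102, plus strand) was at 78.4 and 77.9 CPM in empty vector cells, 124 and 86.2 in full-length ZNF384 cells, 48.5 and 49.2 in TAF15-ZNF384 cells and 31.4 and 34.7 in TCF3-ZNF384 cells. The groups did not overlap and followed the order of Myc. The means were 78.2 ± 0.295, 105 ± 26.6, 48.8 ± 0.492 and 33.1 ± 2.36 CPM (SD, n = 2). Srm was 2.36-fold lower with TCF3-ZNF384 than with the empty vector, a log2 difference of −1.24 ± 0.15 with adjusted p = 2.46e-05, and from −1.32 to −1.10 under the 17 alternatives, each past the threshold. With TAF15-ZNF384 it fell by 0.68 ± 0.14 (adjusted p = 0.00888), a call that did not pass without empty vector replicate 1 (−0.68), TAF15-ZNF384 replicate 1 (−0.68) or TAF15-ZNF384 replicate 2 (−0.70). With full-length ZNF384 it rose by 0.43 ± 0.14 (adjusted p = 0.0394), a call that did not pass in 10 of 17 alternatives. Those were limma-voom, thinning, a fit of only the 2 groups and each fit without 1 library other than full-length ZNF384 replicate 2, with 0.13 without full-length ZNF384 replicate 1 as the lowest value.

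From full-length ZNF384, Srm fell by 1.11 ± 0.14 on the log2 scale with TAF15-ZNF384 (adjusted p = 9.34e-05) and by 1.67 ± 0.15 with TCF3-ZNF384 (adjusted p = 1.14e-06), both under all 17 alternatives. TCF3-ZNF384 was below TAF15-ZNF384 by 0.56 ± 0.15 (adjusted p = 0.0317), and this did not pass with limma-voom or without either TAF15-ZNF384 or either TCF3-ZNF384 library, at −0.64 to −0.49.

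Per kilobase of exon the 10 genes differed widely, and the order held at its ends in each group. Mxd4 was the most abundant, at 93.6, 104, 106 and 111 CPM per kb in the groups as ordered in the plot of levels by library, and Mxi1 the least, at 0.53 to 0.74 CPM per kb. With the empty vector Srm was next at 48.9 CPM per kb, then Myc at 30.6, Mycn at 30.1 and Odc1 at 29.5, whose libraries overlapped. Mxd3 at 14.0, Mnt at 8.54, Max at 7.06 and Mlx at 5.98 followed. With full-length ZNF384 the order below Mxd4 was Srm at 65.7 CPM per kb, Myc at 43.8, Odc1 at 27.6 and Mycn at 26.3, of which the last pair overlapped. Mxd3 at 13.2, Mnt at 10.6, and Mlx at 6.65 with Max at 6.28, which overlapped, came after them. With TAF15-ZNF384, Srm was at 30.5 CPM per kb and Odc1 at 26.9, above Mycn at 22.4 and Myc at 22.0, whose libraries overlapped, and then came Mxd3 at 20.1, Mnt at 9.68, Max at 7.57 and Mlx at 4.48. With TCF3-ZNF384, Srm at 20.7, Myc at 19.3 and Odc1 at 19.2 CPM per kb were close together and overlapped, and Mycn at 12.0 stood below Mxd3 at 15.6 and overlapped Mnt at 10.8.

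Summed per kilobase, Myc and Mycn were at 60.8 and 60.7 CPM per kb in empty vector cells and 70.4 and 69.7 in full-length ZNF384 cells. They were at 43.8 and 44.9 in TAF15-ZNF384 cells and 30.9 and 31.7 in TCF3-ZNF384 cells. The groups did not overlap in this sum. In 4 of 4 groups replicate 1 had more Myc and less Mycn than replicate 2, a pattern seen after the values were known. Myc made up 53.1 and 47.7% of the sum with the empty vector, 64.3 and 60.7% in full-length ZNF384 cells, 50.8 and 48.4% in TAF15-ZNF384 cells and 65.4 and 57.9% in TCF3-ZNF384 cells.

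The antagonists Mxd3, Mxd4, Mxi1 and Mnt together were at 122 and 112 CPM per kb in empty vector cells, 102 and 155 in full-length ZNF384 cells, 135 and 137 in TAF15-ZNF384 cells and 137 and 140 in TCF3-ZNF384 cells. Mxd4 made up 76.1 to 84.3% of this sum. Divided by Myc plus Mycn, it gave ratios of 2.00 and 1.84 in empty vector cells, 1.45 and 2.22 in full-length ZNF384 cells, 3.08 and 3.06 in TAF15-ZNF384 cells and 4.45 and 4.40 in TCF3-ZNF384 cells. The fusion libraries were above the 4 others, and TCF3-ZNF384 above TAF15-ZNF384, while full-length ZNF384 overlapped the empty vector. With Mxd1 added to the antagonists, a sum tried after the values were seen, the ratios were 2.41 and 2.35 in empty vector cells, 1.52 and 2.32 in full-length ZNF384 cells, 3.62 and 3.50 in TAF15-ZNF384 cells and 5.12 and 5.12 in TCF3-ZNF384 cells. In that sum the overlap was gone, both full-length ZNF384 libraries being below both empty vector libraries, and the order of the fusions above them was as before. The ratios are sums over chosen genes and are given as a description, with no test. RNA ratios are not protein ratios. The ratio of Srm to Odc1 per kilobase was 1.67 and 1.65 in empty vector cells, 2.42 and 2.34 in full-length ZNF384 cells, 1.09 and 1.19 in TAF15-ZNF384 cells and 1.10 and 1.06 in TCF3-ZNF384 cells.

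**Figure D3:**
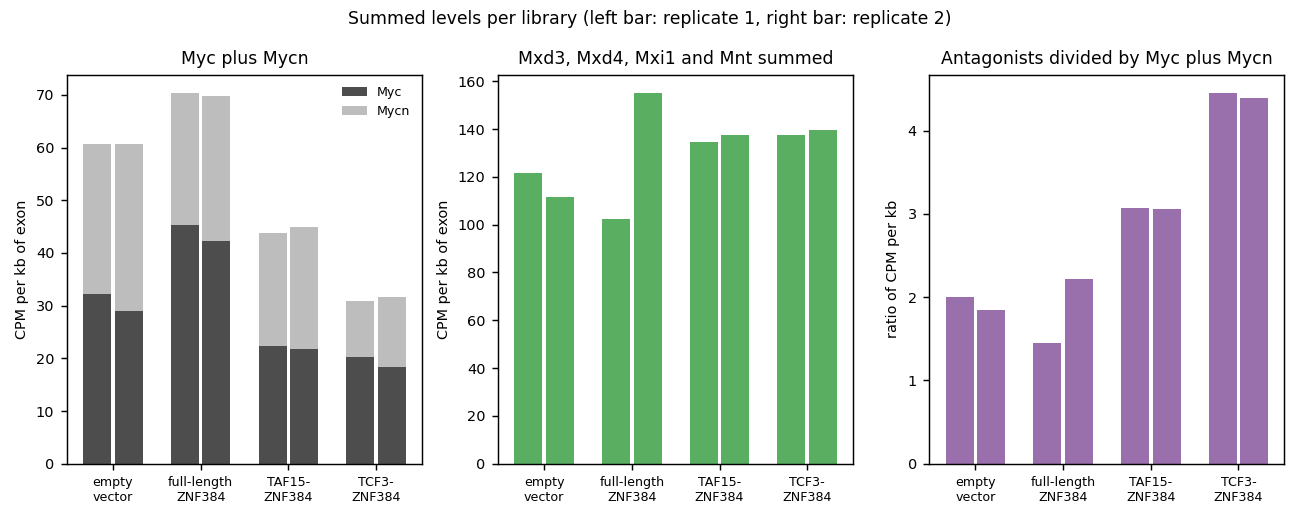
Summed levels per library in CPM per kb of exon: Myc (dark) plus Mycn (light) at left, the antagonists Mxd3, Mxd4, Mxi1 and Mnt in the middle, and their ratio at right; the left bar of each group is replicate 1 and the right bar replicate 2. Myc plus Mycn is lowest with TCF3-ZNF384, at 30.9 and 31.7, and the ratio highest there, at 4.45 and 4.40.

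Genes commonly given as MYC targets were a list of 40 that all passed the filter. The share called over the empty vector was 52.5% with full-length ZNF384 beside 20.6% of all tested genes. It was 15% beside 11.0% in the TAF15-ZNF384 group, near the share of all genes, and 87.5% beside 33.3% in the TCF3-ZNF384 group. With TCF3-ZNF384 over the empty vector 33 fell and 2 rose, with a median log2 fold change of −0.60 beside 0.01 over all tested genes. Among them were Eif4ebp1, a brake on translation (−1.65 ± 0.10, adjusted p = 5.51e-08), Shmt2, of serine metabolism (−1.33 ± 0.12, adjusted p = 1.15e-06), and Prmt5, an arginine methyltransferase (−0.94 ± 0.13, adjusted p = 6.43e-05). Ccnd2, for cyclin D2, and Tert, for telomerase, rose, by 0.91 and 1.49. The number that fell was 20 without TCF3-ZNF384 replicate 2. With TAF15-ZNF384, 5 fell and 1, Ccnd2 (0.69), rose, and the median was −0.31 with 34 of 40 below 0. This count moved widely with the fit, to 23 without either full-length ZNF384 library, 22 in a fit of only the 2 groups, 19 with no filter on low counts, 11 with a replicate block, 9 by the DESeq2 Wald test, and 2 or 3 without any 1 of the other 6 libraries. The genes that fell included Eif4ebp1 (−0.84), Shmt2 (−0.66) and Prmt5 (−0.67, not past the threshold without TAF15-ZNF384 replicate 2, at −0.64).

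With full-length ZNF384, 18 of the 40 rose and 3 fell, and the median was 0.34 beside 0.03 over all tested genes. Ccnd2 (0.75), Tfrc, the transferrin receptor (0.59), and Polr1b, an RNA polymerase I subunit (0.68), rose, while Eif4ebp1 (−0.78), Shmt2 (−0.48) and Pcna (−0.47) fell. The fall of Shmt2 did not pass without empty vector replicate 1 (−0.43), nor that of Pcna without empty vector replicate 2 (−0.37) or full-length ZNF384 replicate 2 (−0.32). The number that rose was 7 without empty vector replicate 2, 11 without full-length ZNF384 replicate 1 and 31 without full-length ZNF384 replicate 2. From full-length ZNF384, 29 fell and 1 rose with TAF15-ZNF384 (median −0.57; 19 fell without TAF15-ZNF384 replicate 1), and 37 fell and 1 rose with TCF3-ZNF384 (median −0.85). The shares called in these comparisons were 75% beside 33.3% of all tested genes with TAF15-ZNF384 and 95% beside 45.6% with TCF3-ZNF384. The rises were those of Pcna with TAF15-ZNF384 (0.70) and Tert with TCF3-ZNF384 (1.05). Hk2, a glycolytic hexokinase, and Polr1b were among those that fell in both, by 1.28 and 1.04 in TAF15-ZNF384 cells and by 1.52 and 1.43 in TCF3-ZNF384 cells. Between the fusions 22.5% were called, beside 10.1% of all tested genes. Of these genes 8 were lower with TCF3-ZNF384 and 1, Tert, higher, and the list had a median of −0.27 with 35 of 40 below 0. That count of 8 was 22 without either full-length ZNF384 library or with only the 2 groups fitted, and 2 to 4 without 1 of the 4 fusion libraries. Eif4ebp1 (−0.81), Shmt2 (−0.66) and Ldha, lactate dehydrogenase (−0.72), were among the 8. Neither Tert (1.04 without TAF15-ZNF384 replicate 1, 1.31 without TCF3-ZNF384 replicate 1) nor Ldha (−0.61 without TCF3-ZNF384 replicate 1) passed in the fits named.

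**Figure D4:**
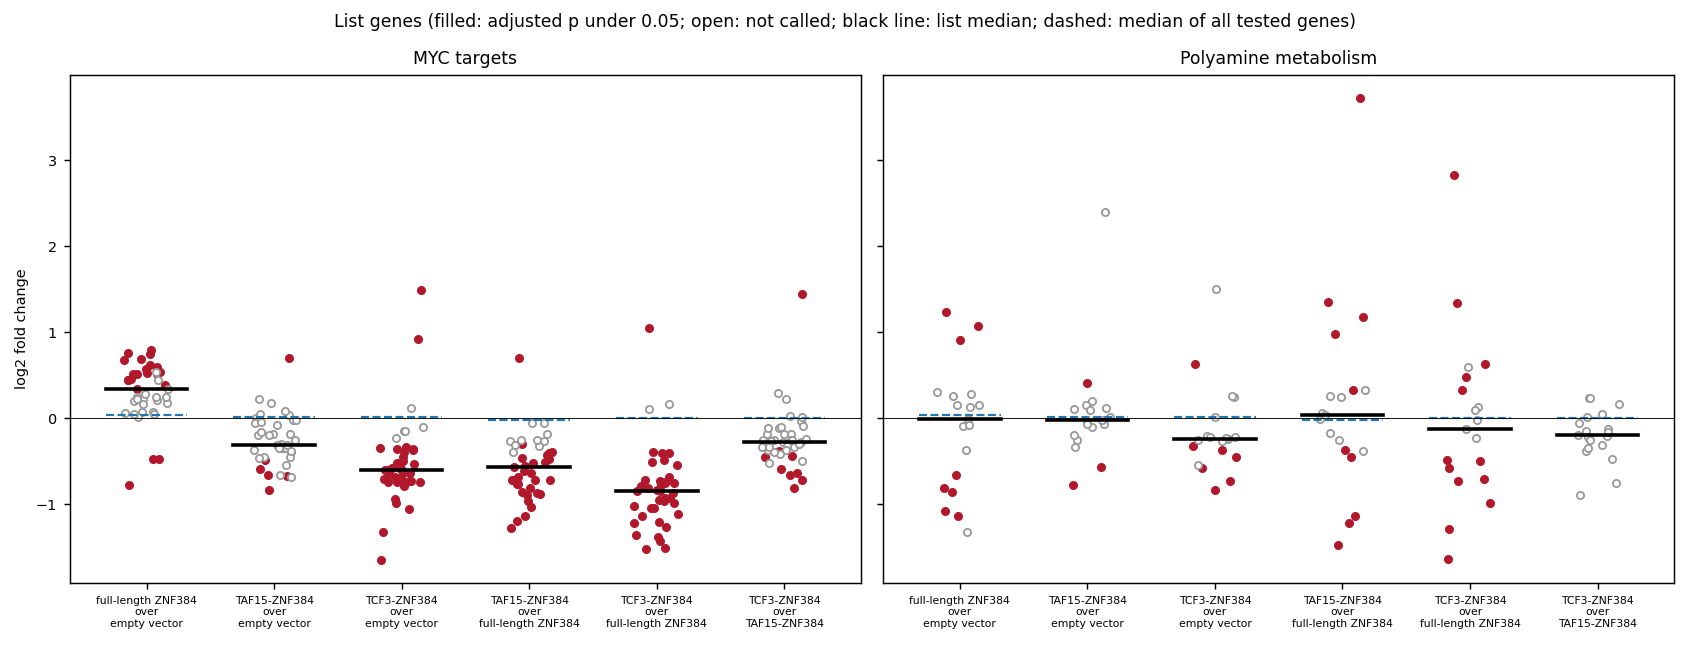
Log2 fold change (y axis) of each gene of the MYC target list (left) and the polyamine metabolism list (right) in the 6 comparisons (x axis); filled points passed the threshold, black lines are list medians and dashed lines the median of all tested genes. The MYC target median runs from 0.34 with full-length ZNF384 to −0.60 with TCF3-ZNF384, each over the empty vector, while the polyamine medians are −0.01 and −0.24.

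Of the other genes of polyamine metabolism, 19 of 26 listed were tested. The share called over the empty vector was 42.1% with full-length ZNF384 beside 20.6% of all tested genes, 15.8% beside 11.0% in the TAF15-ZNF384 group and 36.8% beside 33.3% in the TCF3-ZNF384 group. The last 2 shares are near those of all genes. With full-length ZNF384, 3 rose and 5 fell from the empty vector (median −0.01). Mtap, which recycles the methylthioadenosine released by Srm and Sms, was at 123 and 110 CPM in empty vector cells and 258 and 177 in full-length ZNF384 cells, a rise of 0.91 ± 0.14 (adjusted p = 0.000782). Amd1, whose enzyme supplies the aminopropyl donor for Srm, rose by 1.07 ± 0.16 (adjusted p = 0.00104) and the near-identical Amd2 by 1.24 ± 0.20 (adjusted p = 0.000814); counting may split reads between these copies, so both values are uncertain. Sat1, the acetyltransferase that starts polyamine breakdown and export, was at 39.4 and 46.3 CPM in empty vector cells and 18.5 and 22.2 in full-length ZNF384 cells, a fall of 1.08 ± 0.13 (adjusted p = 6.23e-05). Slc3a2, a transporter subunit (−0.81), Atp13a2, a lysosomal polyamine exporter (−0.66), Oaz1, an antizyme that inhibits ornithine decarboxylase (−0.86), and Azin2, an antizyme inhibitor (−1.14, and −0.81 and not past the threshold without empty vector replicate 2), also fell. Without full-length ZNF384 replicate 2 the number that rose was 7.

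With TAF15-ZNF384, 1 polyamine gene rose and 2 fell (median −0.03): Oaz2, another antizyme (0.40), Slc3a2 (−0.78) and Mtap (−0.57). The number that fell was 4 without either full-length ZNF384 library or with only the 2 groups fitted, and 1 without either empty vector or either TAF15-ZNF384 library; the rise of Oaz2 (0.39 to 0.41) and the fall of Mtap (−0.65 to −0.49) did not pass in those last 4 fits. With TCF3-ZNF384, 1 rose and 6 fell (median −0.24; 3 fell without TCF3-ZNF384 replicate 2). Oaz2 rose by 0.63 ± 0.10 (adjusted p = 0.000397), and 2 genes rose under total-count scaling or without either full-length ZNF384 library. Slc3a2 (−0.83), Mtap (−0.73), Paox, a polyamine oxidase (−0.59), and Eif5a, the translation factor that carries the spermidine-derived hypusine (−0.45, and −0.42 and not past the threshold without TCF3-ZNF384 replicate 2), fell. Mtap was at 70.3 and 69.8 CPM in TCF3-ZNF384 cells, so that it followed Srm in order across the 4 groups. From full-length ZNF384, 5 rose and 5 fell with TAF15-ZNF384, 52.6% of the list beside 33.3% of all tested genes. Also from full-length ZNF384, 5 rose and 8 fell with TCF3-ZNF384, 68.4% of the list beside 45.6% of all tested genes. In the TAF15-ZNF384 group both counts were 3 without TAF15-ZNF384 replicate 1, and the rises were 8 under total-count scaling and 3 with only the 2 groups fitted. In the TCF3-ZNF384 group the rises were 3 without full-length ZNF384 replicate 1 or with only the 2 groups fitted, and 2 without TCF3-ZNF384 replicate 2. Between the fusions none passed edgeR's test, where 10.1% of all tested genes were called. At an unadjusted p under 0.05, 5 were lower with TCF3-ZNF384 and 0 higher, while 1 fell by the DESeq2 Wald test and 0 by limma-voom. The number that fell was 6 with only the 2 groups fitted, 4 without either full-length ZNF384 library, 3 after thinning, 2 with no filter on low counts and 1 with DESeq2 size factors, a filter of 2 CPM or a replicate block.

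Genes that act on MYC protein or as its cofactors numbered 24, all tested. The share called over the empty vector was 25% with full-length ZNF384 beside 20.6% of all tested genes, 12.5% beside 11.0% in the TAF15-ZNF384 group and 50% beside 33.3% in the TCF3-ZNF384 group. The first 2 shares are near those of all genes. With TCF3-ZNF384, 6 rose and 6 fell. Fbxw7, the ubiquitin ligase receptor that marks phosphorylated MYC for destruction, was at 15.6 and 17.98 CPM in empty vector cells and 32.5 and 34.1 in TCF3-ZNF384 cells, a rise of 0.99 ± 0.12 (adjusted p = 3.99e-05). Gsk3b, the kinase that creates the mark Fbxw7 reads, rose by 0.66 ± 0.11 (adjusted p = 0.000321), and Sin3b, the corepressor recruited by MXD proteins and MNT, by 0.54 ± 0.09 (adjusted p = 0.000577). Usp28, a deubiquitinase of MYC, also rose, from 7.08 and 6.65 CPM in empty vector cells to 9.57 and 10.6 in TCF3-ZNF384 cells. Ruvbl1 (−0.53) and Wdr5 (−0.44), both MYC cofactors, and Aurka, a kinase that stabilises N-MYC (−0.52), fell. With TAF15-ZNF384, 2 rose, Fbxw7 (0.63 ± 0.13, adjusted p = 0.00684) and Sin3a, another SIN3 corepressor (0.48), and Usp36, a deubiquitinase of MYC, fell (−0.43). With full-length ZNF384, 4 rose, which were Hdac2 (0.55), Huwe1 (0.45), Hdac1 (0.47) and Usp28 (at 10.1 and 9.39 CPM). Ep400 (−0.36) and Zbtb17, which encodes the MYC partner MIZ1 (−0.40), fell. Between the fusions Gsk3b (0.69) and Sin3b (0.46) were higher with TCF3-ZNF384, 8.33% of the list beside 10.1% of all tested genes called. The counts of this list moved with the fit. In the TCF3-ZNF384 group the 6 rises were 3 without empty vector replicate 1 or TCF3-ZNF384 replicate 2, and the 6 falls were 3 without empty vector replicate 1, 2 without TCF3-ZNF384 replicate 1, 1 without TCF3-ZNF384 replicate 2 and 3 under total-count scaling. With full-length ZNF384 the 4 rises were 2 without empty vector replicate 1, 1 without empty vector replicate 2 and 7 without full-length ZNF384 replicate 2, and the 2 falls were 0 without either empty vector library. In the TAF15-ZNF384 group no gene of the list rose without empty vector replicate 1 (Fbxw7 at 0.53) or either TAF15-ZNF384 library (0.63 and 0.62), and Sin3a (0.38 to 0.57) and Usp36 (−0.53 to −0.36) did not pass without any 1 library of these groups. With full-length ZNF384, Ep400 (−0.30 and −0.41) and Zbtb17 (−0.35 and −0.44) did not pass without empty vector replicate 1 or 2. Huwe1 (0.36) did not pass without empty vector replicate 1, nor Hdac2 (0.50) and Hdac1 (0.36) without empty vector replicate 2. Usp28 did not pass without empty vector replicate 1 (0.56) or 2 (0.47) or full-length ZNF384 replicate 1 (0.44). Zbtb17 was also lost without full-length ZNF384 replicate 1 (−0.33) or either TAF15-ZNF384 library (−0.40 in each). Alternatives other than leaving out a library ended some of these calls too. With full-length ZNF384, Ep400, Huwe1 and Hdac1 did not pass with only the 2 groups fitted, nor Zbtb17 by the DESeq2 Wald test or after thinning. In the TAF15-ZNF384 group neither Sin3a nor Usp36 passed after thinning, and Usp36 did not pass under total-count scaling. With TCF3-ZNF384, Aurka did not pass without TCF3-ZNF384 replicate 2 (−0.36), nor Wdr5 without empty vector replicate 2 (−0.43) or TCF3-ZNF384 replicate 1 (−0.41) or 2 (−0.47). Usp28 did not pass there without empty vector replicate 1 (0.60) or 2 (0.51) or TCF3-ZNF384 replicate 2 (0.47). The difference of Sin3b between the fusions did not pass without any 1 of the 4 fusion libraries (0.45 to 0.47). The calls followed under all alternatives were those of up to 3 genes a list and direction with the smallest adjusted p in each comparison. Of these 88 calls over the 6 comparisons, 63 passed under every alternative that tested the gene. They were the strongest calls of each list in these same data, so this share does not hold for the lists as a whole. Usp28 is not among them.

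Among 8515 genes with a mean of at least 5 CPM, those whose log2 level followed Myc most closely over the 8 libraries were Elovl5, a fatty acid elongase (Pearson's r = 0.997), Fut4, a fucosyltransferase (0.996), and Ydjc (0.995). Srm was followed by Mybbp1a (0.996), Surf6 (0.994) and Ddx56 (0.993), nucleolar proteins of ribosome production. Odc1 was followed by Cluh (0.979), Timm50, of mitochondrial import (0.979), and Rad54b, of recombination repair (0.977). Surf6 was at 130 and 120 CPM in empty vector cells, 158 and 138 in full-length ZNF384 cells, 92.2 and 91.5 in TAF15-ZNF384 cells and 71.1 and 74.6 in TCF3-ZNF384 cells. These values describe 8 libraries in 4 groups and carry no p, since libraries of a group share their construct.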

How the data were processed

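RNA was measured in 8 stranded total RNA libraries, 2 in each of 4 groups taken from the labels. The deposited values are whole-number counts of reads per gene, which the authors made with HTSeq 0.6.1p1 on mm9, per the submitters' processing notes; the aligner and strand setting are not given in the sources used here. Totals ran from 9381954 to 41483660 counts, and no library pair of a group agreed within sampling noise. In R 4.3.3 with edgeR 4.0.16, genes were filtered with filterByExpr by group (12970 of 32499 tested), scaled by TMM and fitted with a robust quasi-likelihood model with 1 term a group (4 residual degrees of freedom). The F test was 2-sided with Benjamini-Hochberg adjustment and a threshold of 0.05. CPM are on TMM-scaled library sizes, per kb of merged GENCODE vM1 exons where stated. SE is the log2 fold change over the square root of F. The members and gene lists were chosen with earlier results of these data known. Named from each list were up to 3 genes a direction with the smallest adjusted p. Oaz1, Azin2, Eif5a, Usp28, Mlxip, Psmc3ip and Prelid1 were added after their values were seen. Likeness used log2 CPM with a prior count of 2. Alternatives were other scalings, filters and tools (limma 3.58.1 voom, DESeq2 1.42.0), thinning, a fit of only 2 groups, a replicate block and leaving out each library, where the lone library is taken to vary like the other groups. List counts under these were added after seeing the data. The pipeline was tested on simulated data.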

Additional observations from a re-analysis of the deposited data

How the results depend on the processing

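Of the 1020 values of single genes recomputed under 17 alternatives in the 6 comparisons, 941 kept their side of the threshold (a gene that passed on neither side may change sign). Most of the 1020 were of genes not called in the main fit, which count as kept where they stayed uncalled. More of the main calls were lost under at least 1 alternative than held under all 17. Of the 1020 values 63, all of main calls, no longer passed the threshold, 13 passed it newly and 3 changed sign and passed. The 3 are all Mxd4: −0.29 (full-length ZNF384 over the empty vector, without full-length ZNF384 replicate 2) and −0.29 and −0.21 (TAF15-ZNF384 and TCF3-ZNF384 over full-length ZNF384, without its replicate 1), with 0.47, 0.46 and 0.54 at the other end of their ranges. With 1 library left out, the number of the 10 genes called and the number of all genes called ranged, for full-length ZNF384 over the empty vector, from 0 to 4 and from 1064 to 3814. For TAF15-ZNF384 over the empty vector they ranged from 0 to 4 and from 404 to 2783, and for TCF3-ZNF384 over it from 3 to 6 and from 2501 to 5372. Over full-length ZNF384 the ranges were 3 to 5 and 2158 to 5333 for TAF15-ZNF384, and 4 to 6 and 3866 to 6558 for TCF3-ZNF384. Between the fusions they were 1 to 4 and 371 to 2361. With full-length ZNF384 over the empty vector 1 of the 10 genes was called, in place of 3, after thinning and 1 with only the 2 groups fitted. Between the fusions 1 was called with limma-voom. A fit of only the 2 groups called 2746 genes in place of 1430 for TAF15-ZNF384 over the empty vector and 2548 in place of 1308 between the fusions. The cause was not tested.

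Total-count scaling without the 5 non-coding genes moved the median of all genes to 0.12 (TAF15-ZNF384) and 0.15 (TCF3-ZNF384) over the empty vector and to 0.12 and 0.17 over full-length ZNF384, and the share of calls that were higher from 45.5 to 67.2%, 48.8 to 67.5%, 46.4 to 64.9% and 48.7 to 65.4%. Myc and Srm stayed lower with both fusions under it. The replicate numbers do not pair the cultures by the labels, and deviations of same-numbered libraries correlated at 0.014 to 0.22 between groups. The column headers of the ZNF384 construct libraries carry the tags Rep3b (replicate 1) and Rep2b (replicate 2), and those of the empty vector carry none. What the tags mean is not given. Any difference they mark cannot be told apart from the constructs in comparisons with the empty vector. With a replicate block the numbers of the 10 genes called stayed at 3, 4, 5, 4, 5 and 3 in the 6 comparisons in the order of the plot of fold changes, and all genes called came to 2999, 1825, 4655, 4653, 6111 and 1523. Thinning every library to the shallowest ended 3 calls of the 10 genes, those of Mnt (0.22) and Srm (0.37) with full-length ZNF384 and of Mycn (−0.38) with TAF15-ZNF384.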
